A study of Homo sapiens and Mus musculus with 29 samples.

Results

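The transcripts of 10 digestive enzymes of the pancreatic acinar cell were followed through 21 RNA-seq libraries of xenografted HPAF-II cells, taken from tumors and from metastases. The genes were chosen by symbol: the proteases PRSS1, CTRB1, CELA2A and CELA3B, the carboxypeptidases CPA1 and CPB1, the lipid enzymes PNLIP, CLPS and CEL, and the amylase AMY2A. All 10 were found among the 58719 gene IDs of the HPAF-II expression table. HPAF-II, a human line of the classical subtype of pancreatic ductal adenocarcinoma (PDAC), had been injected into the tail of the pancreas of NSG mice, which lack lymphocytes but keep their own pancreas. RNA from such a sample can hold mouse transcripts beside the human ones, and the genes were followed as a readout of mouse pancreas lying next to the tumor. The expression table gives values for human genes only, so the species of the reads behind a value was not tested.

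The exocrine pancreas consists of acinar cells, which make digestive enzymes, and of ducts, which carry them to the gut. Acinar cells store most proteases as inactive zymogens, and trypsin, once active in the gut, activates the others. Lipases and amylase are secreted as active enzymes. Few cell types devote so much of their mRNA to so few genes, so that even a trace of acinar tissue is visible in RNA-seq data of another tissue. HPAF-II cells have a ductal phenotype, and the zymogen genes are under the control of acinar transcription factors such as PTF1A and RBPJL.

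The libraries came from 3 control tumors (Cas9 empty vector) and from 4 tumors and 2 peritoneal metastases labeled HNF4G-KO (CRISPR knockout with empty vector). A further 3 tumors were labeled FOXA1-OE here (Cas9 cells with FOXA1). Another 5 tumors and 4 metastases were labeled HNF4G-KO + FOXA1-OE here (HNF4G-KO cells with FOXA1). The sample labels name FOXA1 alone, and the paper describes its overexpression. The paper describes the HNF4G-KO cells as a pool of clones found to be knockouts, with heterozygotic frameshifts checked by Sanger sequencing. HNF4G-KO + FOXA1-OE tumors 2 and 3 came from the same mouse, so that the 15 tumors stand for 14 mice. The 6 metastases stand for 5 mice, 4 of which also gave a tumor. HNF4G-KO + FOXA1-OE metastasis 1 was from the spleen, and the label of metastases 2 and 3 of that group is "peri mets in fat". The others were from the peritoneum. What "peri" stands for is not given. Control mice and mice labeled FOXA1-OE gave no metastasis sample used here. Depth ranged from 33.1 to 69.6 M reads, as derived from the steps of the values. Of the values of up to 20 reads, 56.2% to 61.6% per library were even, and 2 reads were more common than 1 read, so that reads may not be independent and intervals and floors cover counting error at best. Values are in RPKM, reads scaled to gene length and to library depth. HNF4G mRNA was at 2.48 to 3.47 RPKM in control tumors and at 5.72 to 8.42 RPKM in tumors labeled HNF4G-KO, which goes against a loss of the transcript, so that groups are named here by their label alone and every direction rests on that label. FOXA1 mRNA was at 0.519 to 0.932 RPKM in control tumors, at 0.763 to 8.18 RPKM in tumors labeled FOXA1-OE and at 4.65 to 23.1 RPKM in tumors labeled HNF4G-KO + FOXA1-OE. In metastases of the latter group it was at 0.535 to 17.9 RPKM, which overlapped the control tumors.

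Whether a mouse read can be aligned to a human gene depends on how alike the 2 coding sequences are over the length of a read. Every window of 50 bases of the mouse coding sequence was compared with the human gene, a window with at most 5 mismatches being counted as alike. The human stretch closest to the mouse gene is shown for 5 enzymes on which the results turn, with capitals at the bases that differ from the mouse gene. The sequences are from GENCODE 44, in the direction of the transcript. That of CPA1 is in exon 8 (chr7:130385243-130385292, plus strand), that of PRSS1 in exon 2 (chr7:142750608-142750657, plus), that of CELA3B in exon 6 (chr1:21984219-21984268, plus), that of CLPS in exon 3 (chr6:35795225-35795274, minus) and that of CELA2A in exon 6 (chr1:15466038-15466087, plus), all on GRCh38 and all coding.
CPA1: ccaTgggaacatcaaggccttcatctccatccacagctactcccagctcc
PRSS1: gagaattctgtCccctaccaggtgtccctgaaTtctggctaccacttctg
CELA3B: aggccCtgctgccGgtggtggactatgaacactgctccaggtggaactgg
CLPS: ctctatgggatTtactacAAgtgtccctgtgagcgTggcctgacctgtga
CELA2A: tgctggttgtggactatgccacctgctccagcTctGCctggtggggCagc

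The closest stretch of CPA1 differed from the mouse gene at 1 base, those of PRSS1 and CELA3B at 2 bases, and those of CLPS and CELA2A at 4 bases. Over the whole coding sequence, 12.9% of the mouse Cpa1 windows were alike to CPA1, 11.8% of the Prss1 windows to PRSS1 and 10.6% of the Cela3b windows to CELA3B. The shares were 11.8% for CPB1, 9.90% for CEL, 6.91% for PNLIP, 5.17% for CLPS and 2.09% for CELA2A. CTRB1 (23.2%) and AMY2A (29.5%) had the highest shares of the 10 genes. All 10 were below the median of 33.1% for the 15281 genes with the same symbol in both species.

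Some of the genes have close relatives, among which reads can be split. Of the 740 windows of mouse Ctrb1, 75 were closest to human CTRB2 alone, 150 were tied and 0 were closest to CTRB1 alone. Of the 1475 windows of mouse Amy2a5, 44 were closest to AMY2A, 77 to AMY2B and 54 to AMY1A. For Prss1, 40 of the 689 windows were closest to PRSS1, 48 to PRSS2 and 46 to PRSS3. Windows of Cela3b were closer to CELA3B (71 of 758) than to CELA3A (9 of 758). Of the 800 windows of mouse Cela3a, 38 were closest to CELA3B alone and 1 to CELA3A alone, so that CELA3B can hold reads of both mouse genes. Of the 764 windows of Cela2a, 1 was closest to CELA2A alone, 12 to CELA2B alone and 12 were tied. No window of Cpa1 was within the limit of CPB1, none of Cpb1 was within that of CPA1, and none of Pnlip was within that of PNLIPRP1. CLPS and CEL were compared with no relative. Values of CTRB1, AMY2A, PRSS1, CELA2A and CELA3B are therefore uncertain with regard to their relatives.

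The level in control tumor 2 did not follow the share of alike windows over the 10 genes (Pearson's r = -0.05, Spearman's rho = 0.19, n = 10 genes of the same library). Among other acinar genes, SYCN and REG3A, which have 0% of alike windows, were at 0 RPKM in control tumor 2. SPINK1, also with 0%, was at 4.23 RPKM there and reached 45.3 RPKM in HNF4G-KO + FOXA1-OE tumor 1. CTRL, with 19.7%, was at 0.0420 RPKM.

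Control tumor 2 had the highest level of all 10 genes. Their summed RPKM was 451 in this library, or 0.109% of its total, against 0.506 to 41.8 in the other 14 tumors and 0.516 to 0.927 in the 6 metastases. Of the tumors, FOXA1-OE tumor 3 (41.8 RPKM) and HNF4G-KO + FOXA1-OE tumor 4 (31.6 RPKM) came next. HNF4G-KO tumor 3 (0.541 RPKM) and HNF4G-KO + FOXA1-OE tumors 2 and 3 (0.615 and 0.506 RPKM) were within or just below the range of the metastases. In bulk RNA, fewer cells of a type cannot be told apart from less RNA per cell.

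The first of the protein-cleaving enzymes is PRSS1, the cationic trypsinogen (ENSG00000204983.13, chr7:142749468-142753072), whose product activates the other zymogens. It was at 0.684, 56.1 and 1.41 RPKM in control tumors 1 to 3, the second value standing for 3699 reads. It was at 1.80, 0.834, 0.0174 and 0.490 RPKM in tumors labeled HNF4G-KO, at 0.449, 0.604 and 2.10 RPKM in those labeled FOXA1-OE, and at 2.38, 0.0838, 0.0560, 1.09 and 0.332 RPKM in those labeled HNF4G-KO + FOXA1-OE. Metastases held 0.0353 and 0.208 RPKM (HNF4G-KO) and 0.0349, 0.0153, 0.129 and 0.0719 RPKM (HNF4G-KO + FOXA1-OE). PRSS1 was above 0 in every library, and the low tumors overlapped the metastases.

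CTRB1 encodes a chymotrypsinogen, which cuts after aromatic residues once activated. It ranged from 0.00747 to 11.6 RPKM in tumors, with a median of 0.394 RPKM, and from 0.0336 to 0.235 RPKM in metastases. CELA2A, a chymotrypsin-like elastase, was the lowest of the 10 genes. It reached 1.31 RPKM (70 reads) in control tumor 2, was listed at 0 in 11 of the 21 libraries and stood at no more than 9 reads in any other.

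The elastase-family protease CELA3B (ENSG00000219073.7, chr1:21977022-21998642) had a different order of samples. It was at 0.331, 49.8 and 0.408 RPKM in control tumors, at 0.663, 0.607, 0.0212 and 0.162 RPKM in tumors labeled HNF4G-KO, and at 0.0591, 0.101 and 14.7 RPKM in tumors labeled FOXA1-OE. Tumors labeled HNF4G-KO + FOXA1-OE held 1.10, 0.0510, 0.0227, 13.9 and 0.762 RPKM. The values of 14.7 RPKM (897 reads) and 13.9 RPKM (755 reads) stood apart from the other tumors of their groups, of which the highest was at 1.10 RPKM. Metastases ranged from 0.0159 to 0.0746 RPKM, or 1 to 8 reads.

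CPA1 encodes procarboxypeptidase A, which removes residues from the end of a peptide (ENSG00000091704.9, chr7:130380339-130388114). It had the highest median of the 10 genes in tumors, 1.70 RPKM, and was at 1.43, 210 and 1.80 RPKM in control tumors. It was at 4.27, 2.18, 0.0335 and 1.61 RPKM in tumors labeled HNF4G-KO, at 0.468, 0.495 and 11.9 RPKM in those labeled FOXA1-OE, and at 4.52, 0.0592, 0.0120, 7.91 and 1.70 RPKM in those labeled HNF4G-KO + FOXA1-OE. In the metastases, 5 libraries had 0 reads, and HNF4G-KO + FOXA1-OE metastasis 4 had 1 read (0.00513 RPKM). Every metastasis was below every tumor. CPB1, the procarboxypeptidase B, was lower throughout, at 2.53 RPKM in control tumor 2, at 0 to 0.119 RPKM in the other tumors and at 0 in all 6 metastases.

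The genes of fat digestion were PNLIP, the pancreatic triglyceride lipase, CLPS, the colipase that anchors it to lipid droplets, and CEL, the bile salt-stimulated lipase. PNLIP reached 55.8 RPKM in control tumor 2, 3.86 RPKM in HNF4G-KO + FOXA1-OE tumor 4 and 3.54 RPKM in FOXA1-OE tumor 3, and was at 0 to 0.555 RPKM in the other tumors. Of the metastases, 5 were at 0, and HNF4G-KO metastasis 1 held 2 reads (0.0215 RPKM). CLPS was at 42.3 RPKM in control tumor 2, at 7.16 RPKM in FOXA1-OE tumor 3 and at 3.01 RPKM in HNF4G-KO + FOXA1-OE tumor 4, and was at 0 in all 6 metastases and in 4 tumors.

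CEL (ENSG00000170835.14, chr9:133061981-133071861) was the exception among the 10 genes. It was at 0.649, 4.30 and 0.748 RPKM in control tumors, at 1.14, 0.892, 0.431 and 0.909 RPKM in tumors labeled HNF4G-KO, at 0.774, 0.885 and 1.53 RPKM in those labeled FOXA1-OE, and at 0.732, 0.271, 0.360, 0.855 and 1.00 RPKM in those labeled HNF4G-KO + FOXA1-OE. The metastases held 0.299 and 0.605 RPKM (HNF4G-KO) and 0.591, 0.410, 0.443 and 0.503 RPKM (HNF4G-KO + FOXA1-OE). These are 35 to 86 reads per metastasis, and the lowest CEL value among them lay above the highest value of any other of the 10 genes. AMY2A, the pancreatic alpha-amylase that splits starch, reached 17.6 RPKM in control tumor 2 and 1.51 RPKM in HNF4G-KO tumor 2, was at 0 to 0.634 RPKM in the other tumors and was at 0 to 0.0158 RPKM in metastases.

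**Figure D1:**
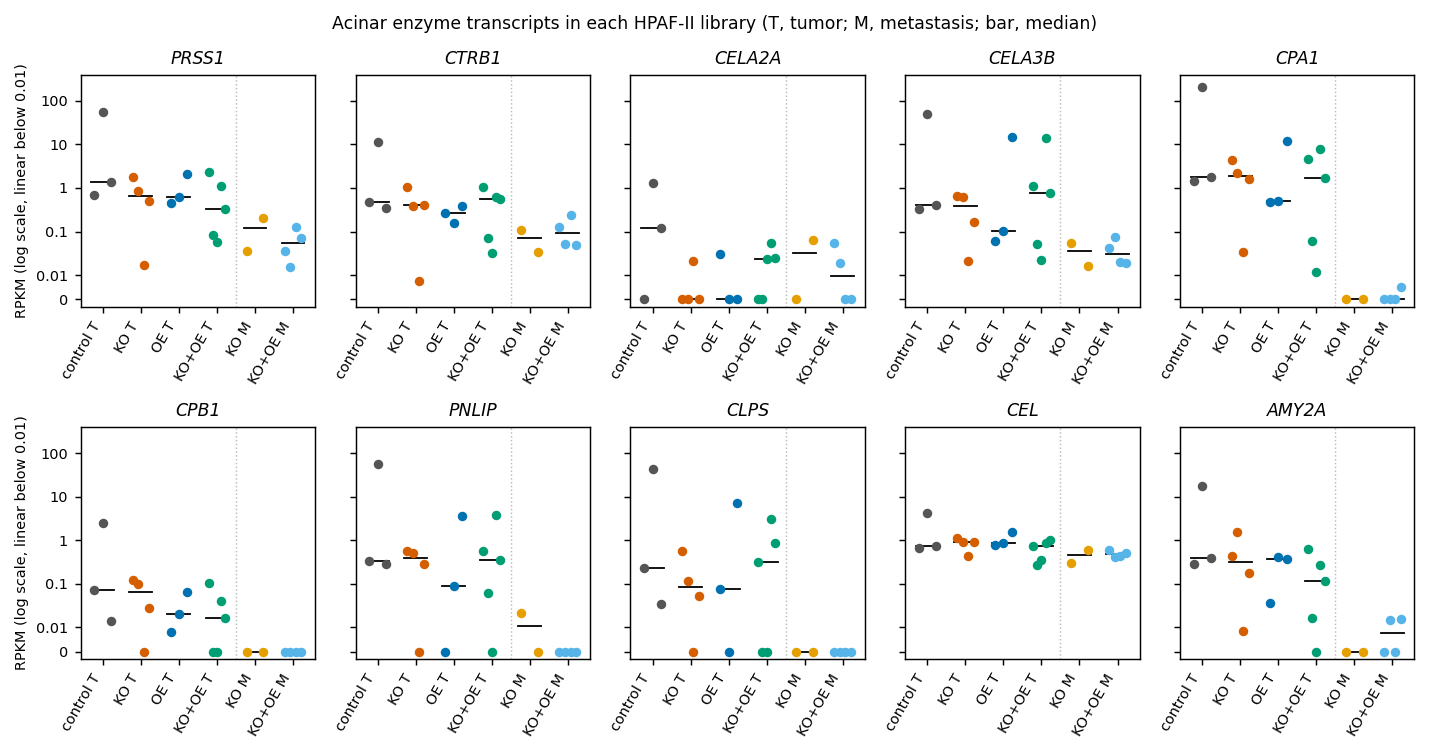
RPKM of each enzyme in every library, on a log scale that is linear below 0.01, with points for libraries and a bar at the median of each group. KO stands for HNF4G-KO, OE for FOXA1-OE, T for tumors and M for metastases. The upper point of the control group is control tumor 2 in every panel, CPA1 is at or next to 0 in all 6 metastases, and CEL keeps 0.299 RPKM or more there.

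By the median over the 15 tumors, on the RPKM scale, CPA1 (1.70) was followed by CEL (0.855), PRSS1 (0.684), CELA3B (0.408), CTRB1 (0.394), PNLIP (0.343), AMY2A (0.278), CLPS (0.113), CPB1 (0.0273) and CELA2A (0). The ranges of all neighbors in this order overlapped. Across the 21 libraries the 10 genes moved together on the log2 scale (pseudocount of 0.1), with pairwise Pearson's r from 0.55 to 0.97 and a median of 0.86 over 45 pairs. Without control tumor 2 the median was 0.72, and the lowest pair was at -0.34. These libraries include those that share a mouse.

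The makeup of the enzymes was not the same in all tumors. CELA3B stood at 12.8 times the RPKM of PRSS1 in HNF4G-KO + FOXA1-OE tumor 4, at 7.0 times in FOXA1-OE tumor 3 and at 2.29 times in HNF4G-KO + FOXA1-OE tumor 5, against 0.132 to 1.22 times in the other 12 tumors. CLPS was at 2.57 to 3.40 times PRSS1 in the same 3 tumors and at 0 to 0.754 times in the others. CPA1 was at 5.12 to 7.28 times PRSS1 in the 3 tumors and at 0.214 to 3.73 times in the others. These 3 libraries also had the highest total RPKM over all genes, 480472 to 528558 against 309076 to 438794 in the other tumors. The part of this in the makeup was not tested. The 3 tumors were picked here by their ratios, so these values are a description.

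Control tumor 2, with the highest sum, had CELA3B at 0.887 times PRSS1, and it set the upper end of the other 12 tumors for CLPS (0.754 times) and CPA1 (3.73 times). CPA1 made up 46.5% of its summed RPKM, PRSS1 12.5%, PNLIP 12.4%, CELA3B 11.04%, CLPS 9.38%, AMY2A 3.89%, CTRB1 2.57% and CEL 0.954%. At the other end, CEL made up 53.6% to 75.8% of the sum in the 6 metastases and 79.7% in HNF4G-KO tumor 3. Without CEL, the sum was 0.160 to 0.383 RPKM in metastases, and 0.110, 0.146 and 0.344 RPKM in the 3 lowest tumors.

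**Figure D2:**
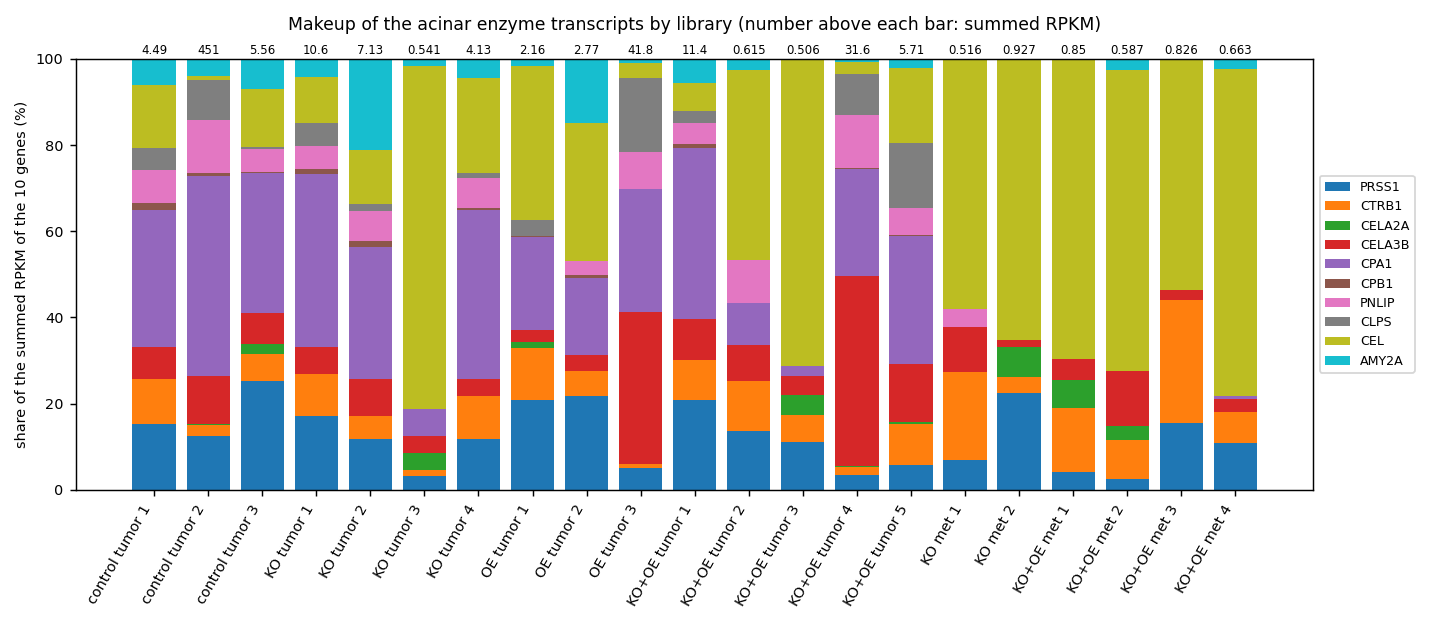
Share of each enzyme in the summed RPKM of the 10 genes (%), one bar per library, with the summed RPKM above the bar. KO stands for HNF4G-KO, OE for FOXA1-OE and met for metastasis. CELA3B takes 43.9% of the sum in HNF4G-KO + FOXA1-OE tumor 4 and 35.2% in FOXA1-OE tumor 3, and CEL takes most of it in the 6 metastases.

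Tumors lay in the pancreas and metastases were labeled with other sites, so the comparison of both asks how far the enzymes followed the site. It was possible for HNF4G-KO and HNF4G-KO + FOXA1-OE cells, in 8 mice with tumors and 5 with metastases, 4 mice being in both sets. Of the 10 genes, 9 were below 0 for metastases minus tumors on the scale of mean log2(RPKM + 1), as were 58.9% of all genes. CPA1, CELA3B, PNLIP and AMY2A passed a two-sided exact permutation test over mice within genotype at an unadjusted p under 0.05. CPA1 fell by 1.60 (p = 0.00762, 525 relabelings, n = 5 and 8, exact permutation test), CELA3B fell by 0.95 (p = 0.0476), PNLIP fell by 0.65 (p = 0.0286) and AMY2A fell by 0.40 (p = 0.0495). The relabelings treat the 13 averaged values as independent, although they come from 9 mice, 4 of which gave both a tumor and a metastasis. Over all 44452 genes above 0, 3.16% were lower in metastases by the same test, and 2.78% of those with a mean under 1 RPKM. The median difference was -0.49 for the 10 genes and -0.01 for all genes.

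Of the genes that did not pass, PRSS1 (difference of -0.66, p = 0.0552, exact permutation test), CTRB1 (-0.43, p = 0.0533), CLPS (-0.56, p = 0.0781), CEL (-0.26, p = 0.0533) and CPB1 (-0.07, p = 0.0533) were lower in metastases, and CELA2A was at 0.01 (p = 0.699). The number of genes with p under 0.05 depended on single mice. It was 9 without the mouse of HNF4G-KO + FOXA1-OE tumors 2 and 3 and 8 without HNF4G-KO tumor 3, whose levels were low. It was 0 without the mouse of HNF4G-KO tumor 2, 1 without the mouse of HNF4G-KO tumor 1 or 4 or of HNF4G-KO + FOXA1-OE tumor 1 or metastasis 3, and 2 without that of HNF4G-KO + FOXA1-OE tumor 4. CPA1 stayed lower in each of these sets, with p from 0.00857 to 0.05, the highest being that without the mouse of HNF4G-KO tumor 2.

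CPA1 alone among the 10 genes had all 6 metastases below all 9 tumors of these genotypes. This held for 0.101% of all genes (45 of 44452). Summed over the 6 metastases, CPA1 had 1 read among 332 M, against a mean of 2.48 RPKM in the 9 tumors. The ratio of tumors to metastases was 2399, with an exact Poisson interval of 431 to 94748 at 95%, which covers counting error of that 1 read only. For CLPS and CPB1, with 0 reads in metastases, the floor of 3 reads over the 6 libraries gave tumors that were at least 36.3-fold and 28.4-fold higher in the mean. Without HNF4G-KO + FOXA1-OE tumor 4, an alternative chosen after seeing the data, the bounds were 15.9-fold for CLPS and 28.9-fold for CPB1, and the ratio for CPA1 was 1741. For CEL, with 371 reads in metastases, tumors were 1.56 times higher.

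**Figure D3:**
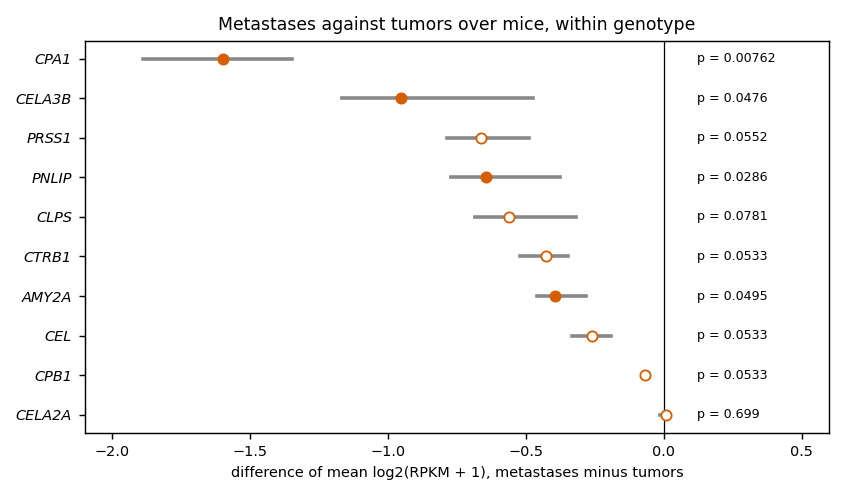
Difference of mean log2(RPKM + 1) between metastases and tumors, over mice within genotype, for each enzyme. Points are the estimates, filled where the exact permutation p is under 0.05, gray lines are the range when each mouse is left out in turn, and the p-values are printed at the right. CPA1 is lowest at -1.60, and all enzymes other than CELA2A are below 0.

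In the fit over genes with limma, which was limited to genes averaging 1 RPKM or more, CPA1 and CELA3B were high enough to be tested. They passed this filter only through the tumors, as no metastasis exceeded 0.00513 RPKM of CPA1 or 0.0746 RPKM of CELA3B. Without the mouse of HNF4G-KO + FOXA1-OE tumor 4, CELA3B was not tested. With all mice, 0 of the 2 passed an adjusted p-value of 0.05. Over all 14099 genes, 0.0638% did. CPA1 fell by 1.60 (standard error 0.45, unadjusted p = 0.00328, limma adjusted p = 0.343), and CELA3B fell by 0.95 (standard error 0.48, adjusted p = 0.743). Within HNF4G-KO mice CPA1 fell by 1.37 (adjusted p = 0.408, with 0.0426% of all genes called), and within HNF4G-KO + FOXA1-OE mice it fell by 1.77 (adjusted p = 0.464, with 0.00709% called). The difference between both genotypes was -0.40 for CPA1 (limma adjusted p = 0.835) and -1.04 for CELA3B (adjusted p = 0.562). With 2 and 4 mice, the exact permutation test within HNF4G-KO cannot go below 0.0667.

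In the 4 mice with samples of both sites, 9 enzymes were higher in the tumor than in the metastases in 4 of 4 mice. CELA2A was the exception with 1 of 4. The share of all genes with this order was not computed, and the enzymes moved together, so this count is a description. CPA1 went from 2.18 to 0 RPKM in the mouse of HNF4G-KO tumor 2, from 1.61 to 0 RPKM in that of HNF4G-KO tumor 4, from 4.52 to 0 RPKM in that of HNF4G-KO + FOXA1-OE tumor 1, with a spleen and a fat metastasis, and from 7.91 to 0.00513 RPKM in that of HNF4G-KO + FOXA1-OE tumor 4. CELA3B went from 13.9 to 0.0195 RPKM in the last of these mice and from 0.162 to 0.0159 RPKM in the mouse of HNF4G-KO tumor 4. A paired permutation test of 4 mice cannot reach a p under 0.05, and none was run.

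**Figure D4:**
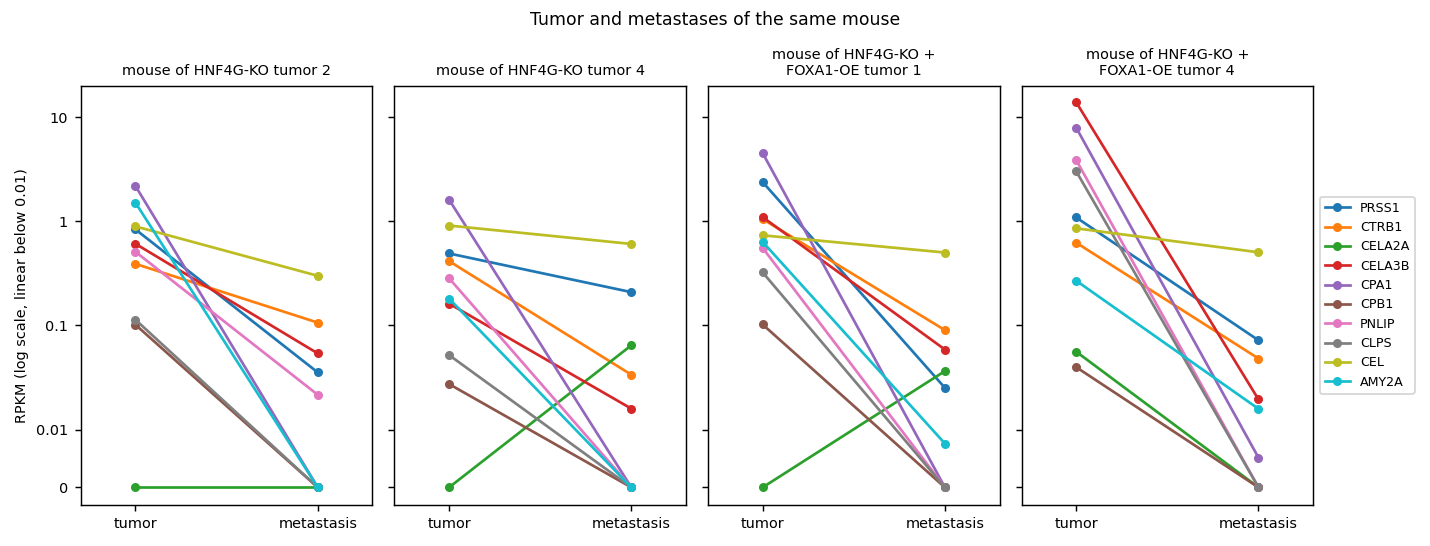
RPKM of the 10 enzymes in the tumor and in the metastases (mean where there were several) of the 4 mice with both, on a log scale that is linear below 0.01. Lines join the values of a gene. CPA1 goes from 1.61 to 7.91 RPKM in tumors to 0 or 0.00513 RPKM in metastases, and CEL has the flattest lines of the genes that are lower in all 4 mice.

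Among the tumors, groups were compared to ask whether the enzymes differed with the cells injected. Of the 10 genes, 8 averaged 1 RPKM or more over all tumors and were tested, and CELA2A and CPB1 were not. CELA3B and CPA1 alone were still tested without control tumor 2, so that the other 6 passed this filter only through that library. No gene passed in any of the 4 comparisons with limma (0 of 8 each, with 0 of 8 at an unadjusted p under 0.05 as well). The share of all 14269 genes called was 12.2% for HNF4G-KO against control tumors, 0% for FOXA1-OE against control, 4.7% for HNF4G-KO + FOXA1-OE against control and 0.0561% for HNF4G-KO + FOXA1-OE against HNF4G-KO. The first 3 of these share the control tumors.

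Against control, the differences of tumors labeled HNF4G-KO were -0.44 (CEL) to -2.12 (CPA1) on the log2 scale, with limma adjusted p from 0.179 to 0.386. The mean of PRSS1 in RPKM was 19.4 ± 31.8 (SD, n = 3) for the controls and 0.787 ± 0.757 (SD, n = 4) for HNF4G-KO, the SD of the controls being above their mean. Without control tumor 2, CELA3B and CPA1 were the genes left to test, at -0.04 and -0.01. Tumors labeled FOXA1-OE were at -0.28 to -1.89 against control (adjusted p from 0.840 to 0.886). Those labeled HNF4G-KO + FOXA1-OE were at -0.54 to -1.79 (adjusted p from 0.303 to 0.809). Without control tumor 2, CELA3B and CPA1 turned to higher values in both groups, at 0.95 and 0.23 with FOXA1-OE and at 1.00 and 0.39 with HNF4G-KO + FOXA1-OE.

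Between tumors labeled HNF4G-KO + FOXA1-OE and HNF4G-KO, CELA3B differed by 1.04 (standard error 1.16, limma adjusted p = 0.577) and CLPS by 0.61 (standard error 1.00, adjusted p = 0.715), while the other 6 genes differed by -0.22 to 0.45. The 2 groups overlapped for all 10 genes, and so did each group and the controls. By the exact permutation test over mice, p was between 0.143 and 1 over the 40 tests of a gene in a comparison of tumors. With 3 and 3 tumors, as for FOXA1-OE against control, that test cannot go below 0.1.

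Other genes of the acinar cell were read beside the 10 enzymes, from a list of 23. The 5 with the highest mean were RNASE1 (100.9 RPKM), CTRB2 (20.2 RPKM), PRSS2 (18.6 RPKM), AMY2B (16.5 RPKM) and SPINK1 (10.6 RPKM). CTRB2, PRSS2 and AMY2B, which encode a second chymotrypsinogen B, the anionic trypsinogen and a second pancreatic amylase, were highest in control tumor 2 at 330, 270 and 228 RPKM. CTRB1, PRSS1 and AMY2A, their relatives among the 10 enzymes, were at 11.6, 56.1 and 17.6 RPKM in the same library. RNASE1, the pancreatic ribonuclease, and SPINK1, a trypsin inhibitor that tumors of epithelial origin also make, had another order, with maxima of 480 RPKM in FOXA1-OE tumor 3 and 45.3 RPKM in HNF4G-KO + FOXA1-OE tumor 1. SYCN, REG1A, REG1B and REG3A, secretory products of the acinar cell, were at 0 in at least 15 of the 21 libraries and did not exceed 0.0660 RPKM.

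Of the 23 genes, 21 were above 0 in the libraries of the site comparison. There, 8 were lower in metastases at an unadjusted p under 0.05 (exact permutation test over mice, n = 5 and 8) and 0 were higher, against 3.16% and 2.8% of all genes. Among them were CTRB2 (difference of -2.04), AMY2B (-2.20), PRSS2 (-1.80), PNLIPRP1 (-1.72), PRSS3 (-1.54), SPINK1 (-1.37) and SERPINI2 (-0.17). CTRB2, AMY2B, PRSS2 and PRSS3 are relatives of CTRB1, AMY2A and PRSS1. Reads can be split among them, so these genes are not independent of the enzymes. SPINK1 had 0% of alike windows and was at 4.23 RPKM in control tumor 2, so its fall is not a readout of mouse pancreas. How this count depended on single mice is not reported here. In the tumor comparisons 11 of the 23 were high enough to be tested with limma. For HNF4G-KO against control tumors, 2 of the 11 passed, where 12.2% of all genes did. RNASE1 fell by 1.22 (limma adjusted p = 0.0367) and ERP27 fell by 0.54 (adjusted p = 0.0408). For HNF4G-KO + FOXA1-OE against control tumors, 1 of the 11 passed, where 4.7% of all genes did. It was SPINK1, which was higher by 1.79 (limma adjusted p = 0.0399). None of the 11 passed in the other comparisons of tumors.

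Transcription factors of the acinar lineage were low. PTF1A did not exceed 0.0699 RPKM and GATA4 did not exceed 0.0554 RPKM. RBPJL, the acinar partner of PTF1A, was highest in control tumor 2 at 0.969 RPKM, and had a median of 0.0395 RPKM. BHLHA15, known as MIST1, ranged from 0.0634 to 1.42 RPKM and NR5A2 from 0.0483 to 0.538 RPKM, with maxima in HNF4G-KO + FOXA1-OE metastasis 1 and HNF4G-KO tumor 4. NR5A2 was lower in metastases by 0.25 on the log2 scale (exact permutation p = 0.00952), and the other 4 factors did not pass. Of all genes, 3.16% were lower by this test.

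The genes whose pattern was most like that of the 10 enzymes were sought among 14223 genes averaging 1 RPKM or more, by Pearson's r with the mean standardized log2 value of the 10 over 21 libraries. Among the 10 most alike were PRSS3P1 (r = 0.95), CELA1 (0.94), PRSS3 (0.94), CTRB2 (0.93), AMY2B (0.93), CELA3A (0.92), PNLIPRP1 (0.91), PRSS2 (0.91) and ZG16 (0.86). The gene after these 10 was at 0.71. CELA1, an elastase made by the mouse pancreas but not by the human one, was at 469 RPKM in control tumor 2 and at 0 to 9.01 RPKM in the other tumors, above every one of the 10 enzymes in that library. Of the windows of mouse Cela1, 27.8% were alike to human CELA1. PRSS3P1 is annotated as a pseudogene of the trypsinogen family, so that its reads can belong to relatives. PRSS2, PRSS3, CTRB2, AMY2B and CELA3A are relatives of the 10 enzymes as well, so part of their likeness can come from split reads, which was not tested. The order was not computed without control tumor 2, the library in which all 10 enzymes were highest. ZG16 encodes a zymogen granule protein that goblet cells make as well, and was at 40.7 RPKM in control tumor 2 and at 13.7 and 7.12 RPKM in HNF4G-KO + FOXA1-OE tumors 5 and 4.

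Markers of other cells of these tissues were summed in the same libraries. INS, the insulin gene of islet beta cells, was at 62.3 RPKM in control tumor 2, at 0 to 8.16 RPKM in the other tumors and at 0 in all 6 metastases. It was at 8.15 RPKM in HNF4G-KO + FOXA1-OE tumor 2, a library with 0.615 RPKM of summed enzymes, and at 0.209 RPKM in control tumor 3, with 5.56 RPKM of enzymes. Of 9 islet genes, 3 were lower in metastases by the exact permutation test, as were 3.16% of all genes. Among genes with a mean under 1 RPKM the share was 2.78%. The 3 genes were INS at -1.51 (exact permutation p = 0.0019, the smallest value the design allows), GCG at -0.30 (p = 0.00762) and PCSK2 at -0.02 (p = 0.0114). GCG and PCSK2 are named because they passed. SST, the somatostatin gene of delta cells, reached 4.15 RPKM in control tumor 2 and 0.0970 RPKM at most in metastases. IAPP and SLC30A8 did not exceed 0.0263 and 0.00618 RPKM. Their shares of alike windows were 0% and 12.5%, against 48.7% for GCG and 54.8% for SST. A low IAPP value therefore does not show that the mouse transcript was absent. The part of sequence in the low SLC30A8 values was not tested. The summed islet list was at 69.2 RPKM in control tumor 2, at 0.143 to 9.57 RPKM in the other tumors and at 0.0473 to 0.218 RPKM in metastases.

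The stroma list, which holds collagens and other matrix genes, went the other way. It summed to 34.2 to 193 RPKM in tumors and to 72.2 to 396 RPKM in metastases, and 7 of its 9 genes were higher in metastases by the exact permutation test, as were 2.8% of all genes. COL1A1 had a median of 26.2 RPKM in tumors and 64.3 RPKM in metastases, and COL3A1 of 13.1 and 29.0 RPKM. Of the lists of blood (4 genes), adipose (5 genes), spleen (3 genes) and tumor epithelium (6 genes), 0 genes passed in either direction. The spleen list did not exceed 1.05 RPKM. CIDEC, a lipid droplet gene and the highest of the adipose list, was at 11.1 to 52.8 RPKM in tumors and at 12.9 to 54.1 RPKM in metastases. PLIN1, the next highest by mean, was at 0.153 to 0.618 RPKM over all libraries. ADIPOQ, which defines fat cells, was the lowest of that list by mean and did not exceed 0.0108 RPKM. HBB and ALAS2 of the blood list did not exceed 8.19 and 0.791 RPKM. KRT19 and KRT8, keratins of the tumor cells, had the highest means of the epithelial list at 1295 and 922 RPKM, and the list summed to 2834 to 5399 RPKM in tumors and 2917 to 5226 RPKM in metastases. The part of these cell types in the values of the enzymes was not tested.

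The mouse genes were also read in 8 libraries of KPC cells, 4 grown from a primary tumor and 4 from a metastasis in the liver, which come from a mouse model of PDAC and were aligned to the mouse genome. Of the 10 mouse genes, Prss1, Cela3b, Cpb1, Pnlip and Amy2a5 were at 0 in all 8 libraries. The highest value of any of the 10 was 0.202 RPKM, for Clps in cells of the metastasis, and Ctrb1 and Cel reached 0.0757 RPKM each. The KPC values come from another table and cannot be set against those of HPAF-II.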

How the data were processed

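RNA-seq libraries of 21 HPAF-II tumors and metastases (15 mice) and of 8 KPC cell line samples were used. The authors aligned reads with STAR 2.6.1a and counted them with featureCounts 2.0.4, per the labels, and deposited RPKM values. The labels name GRCh38 and the study's methods an older human build, so the build was not settled here. At least 99.78% of low RPKM values (up to 20 reads) lay within 0.05 of whole reads, from which depth and read numbers were derived. The most common step was 2 reads although the methods state single-end reads, so that a read here may be a part of a pair. Another 12 columns of the KPC table matched no sample and were not used.

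Samples were grouped by their labels. Where a mouse gave several tumors or several metastases, their log2(RPKM + 1) values were averaged, on a scale that understates changes of low genes. Genes averaging 1 RPKM or more in the libraries that entered a comparison were tested with limma 3.58.1 (R 4.3.3) at a Benjamini-Hochberg adjusted p of 0.05, over all genes tested. Single enzymes were compared with two-sided exact permutation tests over mice (Python 3.11.15, scipy 1.17.1), unadjusted. The labels tie samples to mice, so p-values of the tumor comparisons cover the spread between mice. In the site comparison 4 mice enter both sets, and the main limma fit and the permutation test treat their values as independent. Coding sequences were taken from GENCODE 44 and its mouse counterpart. The enzymes and gene lists were chosen with earlier results of these data known. Named genes were the 10 enzymes, the 5 highest other acinar genes and the acinar factors. Also named were the 2 highest genes of other lists and the 10 genes most alike in pattern. Genes behind small counts and some low genes of the lists were named as well, chosen after their values were seen. Alternatives were another pseudocount, no filter, a common median, separate fits, unaveraged samples, blocks for replicate number or mouse, and leaving out mice or libraries. Some items are not reported here. The scripts were tested on simulated data. Replicate numbers did not pair tumors (r from -0.53 to 0.50 over 19 pairs), whereas 4 tumors and metastases shared a mouse (r from -0.03 to 0.30).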

Additional observations from a re-analysis of the deposited data

Results flagged for a closer look

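In groups of 4 or 5 samples, 27 sets of values were tested for a sample far from the others by Dixon's criterion, and 5 were past its 95% limit. The limit gives about 1 in 20 by chance for normally distributed values. These sets are raw RPKM of genes in the same libraries, so the rate by chance is not known here. HNF4G-KO + FOXA1-OE tumor 4 was the sample in 3 of them. It held 13.9 RPKM of CELA3B (next highest 1.10 RPKM, n = 5), 3.86 RPKM of PNLIP (next 0.555 RPKM) and 3.01 RPKM of CLPS (next 0.855 RPKM). The other 2 rested on very few reads, in sets at 0 in all other samples, which pass the limit whatever the value. CELA2A was at 0.0215 RPKM, or 2 reads, in HNF4G-KO tumor 3 and at 0 in the other 3 tumors of the group, and CPA1 was at 0.00513 RPKM, or 1 read, in HNF4G-KO + FOXA1-OE metastasis 4 and at 0 in the other 3 metastases. Control tumor 2 lies in a group of 3, which was not tested.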

How the results depend on the processing

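The count of enzymes passing limma's adjusted p of 0.05 was 0 in all 7 comparisons under every alternative run, the replicate block (0 enzymes) and the mouse block (0 enzymes) included. The number of enzymes with an exact permutation p under 0.05 between sites, 4, was 3 to 5 under alternatives chosen after seeing the data (5 with a pseudocount of 0.1, 5 with a common median, 3 with each sample on its own, 3 without HNF4G-KO + FOXA1-OE tumor 4) and ranged from 0 to 9 when single mice were left out. CELA2A between sites ranged from -0.014 to 0.024.

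Between tumors labeled HNF4G-KO + FOXA1-OE and HNF4G-KO, the sign turned for PRSS1 (-0.056) and CTRB1 (-0.0020) with each sample on its own. It turned for CTRB1 with the replicate block as well (-0.034). For CPA1 it turned (-0.059) without control tumor 2, FOXA1-OE tumor 3 and HNF4G-KO + FOXA1-OE tumor 4, a set chosen after seeing the data. The cause was not tested. With single mice left out, PRSS1 ranged from -0.22 to 0.34, CTRB1 from -0.059 to 0.28, CPA1 from -0.059 to 0.98, PNLIP from -0.024 to 0.72, CEL from -0.21 to 0.027 and AMY2A from -0.39 to 0.046. Against control, CELA3B ranged from -2.08 to 0.95 and CPA1 from -2.99 to 0.23 with FOXA1-OE, and from -1.62 to 1.00 and -2.83 to 0.39 with HNF4G-KO + FOXA1-OE, the highest values being those without control tumor 2. At the depth of the metastases, 3 reads of CLPS are worth 0.0718 to 0.151 RPKM, so that lower levels were not detectable in a single library.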
